A study of Arabidopsis thaliana with 8 samples.

Results

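Serine carboxypeptidases are secreted or vacuolar enzymes that, in their ancestral form, cut single amino acids from the carboxyl end of proteins by means of a catalytic serine. Plants carry a large family of them. Several members known in Arabidopsis have lost this activity and act instead as acyltransferases, which move sinapic or benzoic acid from a glucose ester onto malate, choline, anthocyanins or glucosinolates. For most members of the family neither substrate nor role is known. The members described here were chosen by their deposited description, which holds the words serine carboxypeptidase for 55 of the 27197 loci with usable entries. They comprise 49 serine carboxypeptidase-like genes (SCPL, spelled scpl or SCPL as in the files) and 6 genes of the S28 group, which is related to the prolyl carboxypeptidases of animals. The family itself was selected on the RPKM of scpl47 in nga and WT, where its fall was among the largest, so all values of that comparison are given as descriptions, without p-values for members. SNG1, the sinapoylglucose:malate sinapoyltransferase, and BRS1, a secreted carboxypeptidase known for its part in brassinosteroid signalling, belong to the same family by sequence but carry other descriptions, and they are given beside the members as relatives.

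Transcripts were measured by RNA sequencing in carpels, the organs that form the pistil, collected by hand from Arabidopsis thaliana plants of ecotype Columbia on soil in long days. The flowers were at stages 8 to 13, and 15 inflorescences are given for each sample. There were 3 libraries of 35S:NGA, an overexpression line whose driven NGATHA gene is not specified, 3 libraries of nga, with the genotype label nga 1/2/3/4, and 2 libraries of the wild type (WT). The NGATHA proteins are transcription factors with a B3 DNA-binding domain that act redundantly in forming the style and stigma. The cauliflower mosaic virus 35S promoter is known to be active in most plant tissues, and the labels give no alleles for nga. No label says whether libraries of a group stem from different plants, and p-values then reflect only how far these samples spread, which may be technical. Values are RPKM, read numbers corrected for the length of the gene and the depth of the library.

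The libraries held 23.0 to 38.2 M mapped reads, as recovered from the spacing of low values. NGA3 had 102 to 166 RPKM in 35S:NGA, 2.56 to 2.97 RPKM in nga and 4.81 and 5.47 RPKM in WT, in the direction of the labels. NGA4 had 3.68 to 4.56 RPKM in 35S:NGA, 0.123 to 0.248 RPKM in nga and 3.83 and 3.97 RPKM in WT. Transcripts of NGA1 and NGA2 in nga overlapped those in WT. NGA1 had 12.9 to 21.4 RPKM in 35S:NGA, 21.2 to 25.6 RPKM in nga and 23.5 and 23.9 RPKM in WT. NGA2 had 5.78 to 8.88 RPKM in 35S:NGA, 7.73 to 14.9 RPKM in nga and 8.15 and 9.50 RPKM in WT. Neither was called in any comparison. All 10 carpel markers were above 1 RPKM in every library. The 14 anther markers, of tapetum and microspores, summed to 34.5, 25.8 and 29.8 RPKM in 35S:NGA and 38.8, 55.8 and 30.9 RPKM in nga. Their sums were 47.8 RPKM in WT 1 and 15.8 RPKM in WT 2. Of these markers, 8 reached 1 RPKM in WT 1 and 2 in WT 2, and A9 had 10.8 and 0.167 RPKM there. The numbers at 1 RPKM were 5, 3 and 3 in the 35S:NGA libraries and 2, 5 and 2 in the nga libraries. LAP6 was the largest part of each sum, at 14.1 to 17.2 RPKM in 35S:NGA, 20.1 to 28.6 RPKM in nga and 16.2 and 10.3 RPKM in WT. The sums thus lean on LAP6 and do not describe the markers as a set. The part of anther transcripts in the levels of the members was not tested. Library nga 2 stood apart, with the morning clock genes CCA1 at 132 RPKM and LHY at 115 RPKM, against at most 2.86 and 1.19 RPKM in the other libraries. Its summed level of 15 green tissue genes was 9725 RPKM, and that of 35S:NGA 3 was 11656 RPKM, against 4462 to 5865 RPKM in the other 6 libraries. Lane 6 carried both WT libraries with nga 1 and nga 2, lane 7 carried 35S:NGA 1 and 35S:NGA 2, and lane 8 carried the third library of each line. Only lane 8 held both 35S:NGA and nga libraries. With lane as a term, that comparison thus rested on 35S:NGA 3 and nga 3 alone. No lane held both 35S:NGA and WT libraries, so no value within a lane could be had for that comparison. A fit with lane as a term links these groups only through nga 3 and 35S:NGA 3 in lane 8. In whole carpels, fewer cells of a type and less RNA per cell cannot be told apart either.

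Together the 55 members took 0.141% to 0.152% of the summed RPKM in 35S:NGA, 0.106% to 0.128% in nga and 0.133% and 0.146% in WT. The sums were 875, 846 and 936 RPKM in 35S:NGA, 756, 630 and 794 RPKM in nga and 892 and 812 RPKM in WT, and the lowest sum was that of nga 2. Between 27 and 30 members per library reached 1 RPKM. A total of 29 members had at least 1 RPKM in at least 2 libraries and were tested, and 26 were not. In both WT libraries the top of the order was SCPL49, scpl35, SCPL43 and scpl25, which together made up 49.0% and 48.1% of the family's RPKM there. Of the 26 untested members, scpl6 was listed at 0 in all 8 libraries, 15 were under 0.1 RPKM everywhere, and the highest value of any was 1.44 RPKM, of AT5G22860 in 35S:NGA 2. The tested members thus covered a wide range of levels.

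**Figure D1:**
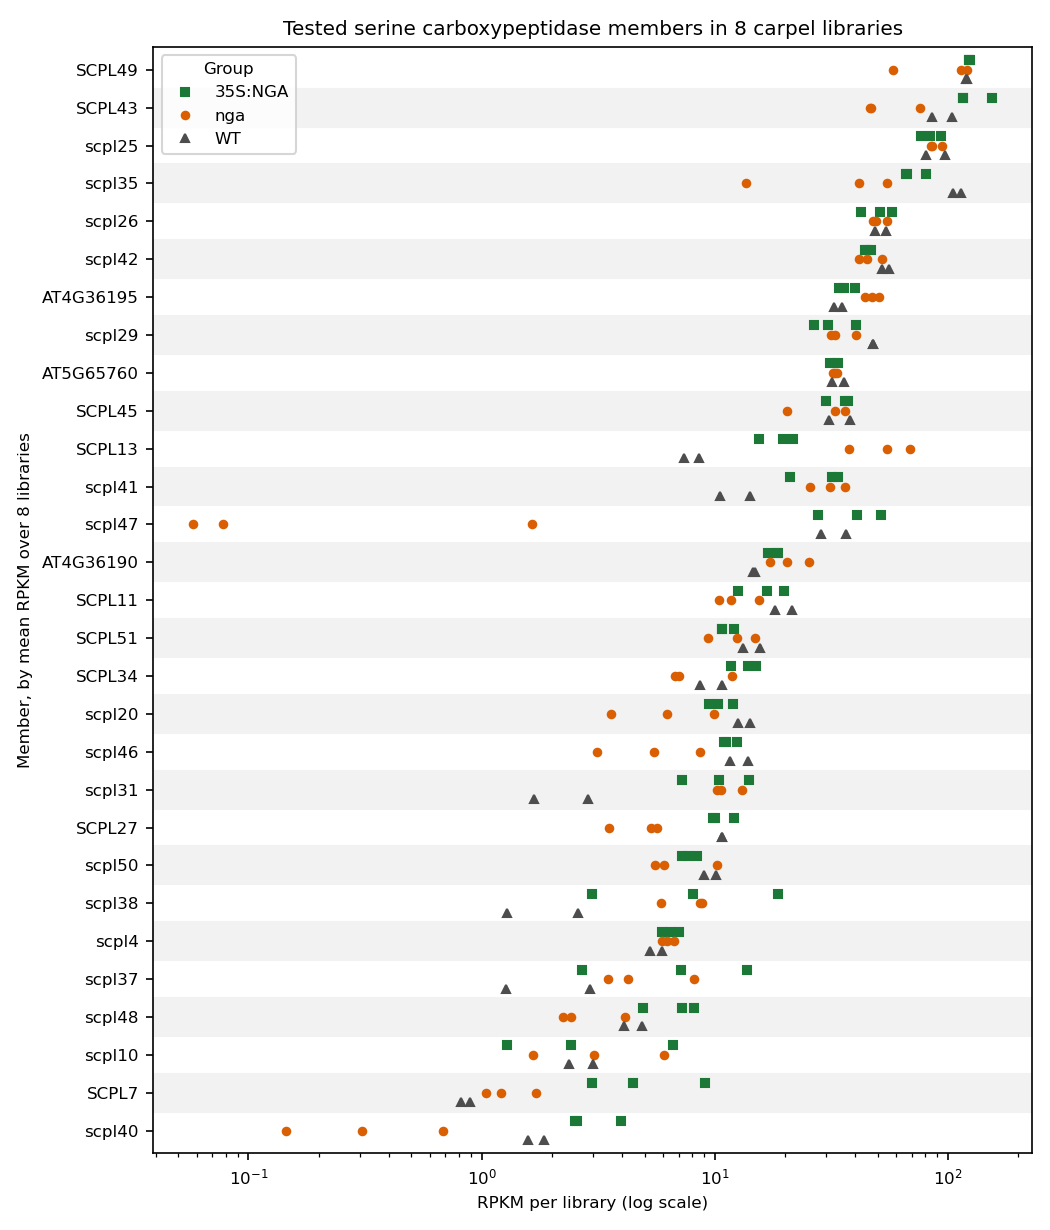
RPKM of the 29 tested members (rows, ordered by their mean over 8 libraries) on a log axis, with a point per library: squares for 35S:NGA, circles for nga and triangles for WT. SCPL49 and SCPL43 stand at the top, and scpl47 is the member whose nga points, 0.0579 to 1.65 RPKM, lie farthest from the 35S:NGA and WT points.

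The codon of the catalytic serine divides the family. In all serine codons the first bases are either TC or AG, and no single base change joins the kinds. A search of the coding sequences for the residues around that serine placed 48 of the 49 SCPL genes in 3 classes, and only SCPL51 had no match. AG-type codons were found in 25 genes, of which 16 were tested. TC-type codons after a glutamate codon were found in 5 genes, scpl47, scpl48, SCPL49, scpl20 and scpl21. TC-type codons after an aspartate or asparagine codon were found in 18 genes, of which 5 were tested, and this class holds the members known in Arabidopsis as acyltransferases. The stretches below, from the TAIR10.1 genome as read on the coding strand, show how the classes differ, with the serine codon in capitals. Those of scpl47 (chr5:7689052-7689081, plus strand), scpl48 (chr3:16467533-16467562, plus), SCPL49 (chr3:3236891-3236920, minus), SCPL13 (chr2:9780083-9780112, plus), SNG1 (chr2:9787487-9787516, plus) and scpl40 (chr3:23440026-23440055, plus) each lie in a single coding exon, and those of scpl35 (chr5:2659811-2659969, plus) and SCPL43 (chr2:5071296-5071460, minus) are interrupted by an intron that is left out here.
scpl47: attaccggtgaaTCTtacgctggtcactac
scpl48: attaccggtgaaTCCtacgctggacattac
SCPL49: attactggagagTCAtatgctgggcactat
SCPL13: gttggtggagatTCTtattcaggtatgatt
SNG1: gtagttggagatTCTtattccggtatgatt
scpl35: atctctggcgagAGTtacgccggtcactat
SCPL43: ctcactggcgaaAGCtacgcagggcattac
scpl40: atcgccggtgagAGCtatgccggccactat

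The member on which the choice of the family rested, scpl47 (AT5G22980, chromosome 5, 7688027 to 7690652, plus strand, TAIR10.1), was abundant in 35S:NGA and WT carpels and nearly absent in nga. It had 51.8, 40.6 and 27.8 RPKM in 35S:NGA, 0.0579, 0.0775 and 1.65 RPKM in nga, and 36.5 and 28.7 RPKM in WT. The nga values correspond to 3, 5 and 75 reads, and the exact Poisson 95% intervals, which cover counting error only, run from 0.619 to 8.77 reads for nga 1 and from 59.0 to 94.0 reads for nga 3. All nga libraries thus lay below all others, and nga 3, in another lane than nga 1 and nga 2, held more scpl47 than they did beyond counting error. The mean was 40.1 ± 12 RPKM in 35S:NGA (SD, n = 3), 0.594 ± 0.912 RPKM in nga (SD, n = 3) and 32.6 ± 5.57 RPKM in WT (SD, n = 2), so that the nga mean was 0.0182 of the WT mean.

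On the log2(RPKM + 1) scale, which understates changes of low values, scpl47 differed by -4.53 ± 0.42 (SE) in nga against WT, the values that led to the choice of the family. The difference was 4.79 ± 0.37 in 35S:NGA against nga and 0.26 ± 0.42 in 35S:NGA against WT, where the values overlapped. With the lane as a term of the fit the direction of this last difference turned, to -1.52. The 35S:NGA libraries were not used in choosing the family, but the nga and WT values they are set against were, so these differences too are descriptions, and no p-value is given for scpl47.

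The sequence just before a gene's start is shown for scpl47 and for its closest relative, scpl48. Both had all their 35S:NGA values above all their nga values, a trait found in 9 of the 29 tested members, SCPL49 among them. Each run holds the 250 bases before the annotated start in TAIR10.1, on the plus strand, with every TATAAA in capitals. These are the letters of the core of the TATA box that positions transcription. Whether any of the marked places acts as a TATA box was not tested. The run for scpl47 is chr5:7687777-7688026 and the run for scpl48 is chr3:16465894-16466143.
scpl47: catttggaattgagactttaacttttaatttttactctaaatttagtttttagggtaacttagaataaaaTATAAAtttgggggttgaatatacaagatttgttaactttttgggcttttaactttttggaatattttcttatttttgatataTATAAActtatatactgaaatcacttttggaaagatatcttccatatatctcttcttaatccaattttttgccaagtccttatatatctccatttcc
scpl48: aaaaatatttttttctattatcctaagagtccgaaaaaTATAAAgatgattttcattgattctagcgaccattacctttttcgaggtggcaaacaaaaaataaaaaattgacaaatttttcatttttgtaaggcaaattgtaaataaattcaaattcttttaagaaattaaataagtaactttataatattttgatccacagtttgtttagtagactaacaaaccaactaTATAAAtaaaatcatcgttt
Each run has TATAAA at 2 places, the nearer beginning 97 bases before the start in scpl47 and 20 bases before it in scpl48. TATAAA, searched on the strand of the gene, was present in 26 of the 55 members' 250-base runs (47.3%), against 33.3% of 26709 genes. CACCTG, the motif that the B3 domain of the related RAV proteins is known to bind, was searched on both strands and was in none of the 55 runs, against 2.55% of all genes. These counts describe the letters of these windows alone.

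The relatives of scpl47 had different levels and patterns. Identity was taken as identical bases in percent of the shorter coding sequence. By this measure scpl47 shared 75.2% with scpl48 and 65.0% with SCPL49, and scpl48 shared 66.5% with SCPL49. For scpl48 (AT3G45010) there were 4.94, 8.15 and 7.25 RPKM in 35S:NGA, 2.24, 2.42 and 4.14 RPKM in nga and 4.87 and 4.08 RPKM in WT. It rose in 35S:NGA against nga by 0.99 ± 0.23 (limma, adjusted p = 0.0476), with no overlap between the groups. This call was lost in 9 of 17 fits, among them those without either WT library, without nga 1, nga 2, 35S:NGA 2 or 35S:NGA 3, where the adjusted p was 0.0841 to 0.177, and that with a lane term (adjusted p = 0.408), and it stood in the fit without nga 3.

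SCPL49 (AT3G10410), which encodes a vacuolar protein of the carboxypeptidase Y type, was the most abundant member by its mean over the 8 libraries. It had 125, 124 and 124 RPKM in 35S:NGA, 120.4, 57.9 and 114 RPKM in nga and 121 and 119.8 RPKM in WT. Apart from nga 2, the library with high clock genes, all libraries lay within a narrow band, and SCPL49 was called in none of the comparisons. The fourth tested gene of the class, scpl20, had 9.43, 10.3 and 12 RPKM in 35S:NGA, 6.24, 3.59 and 9.95 RPKM in nga and 14.2 and 12.6 RPKM in WT. All nga values of scpl20 were below both WT values, and the lowest was again that of nga 2. The remaining gene, scpl21, was above 0 in 35S:NGA 3 alone.

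**Figure D2:**
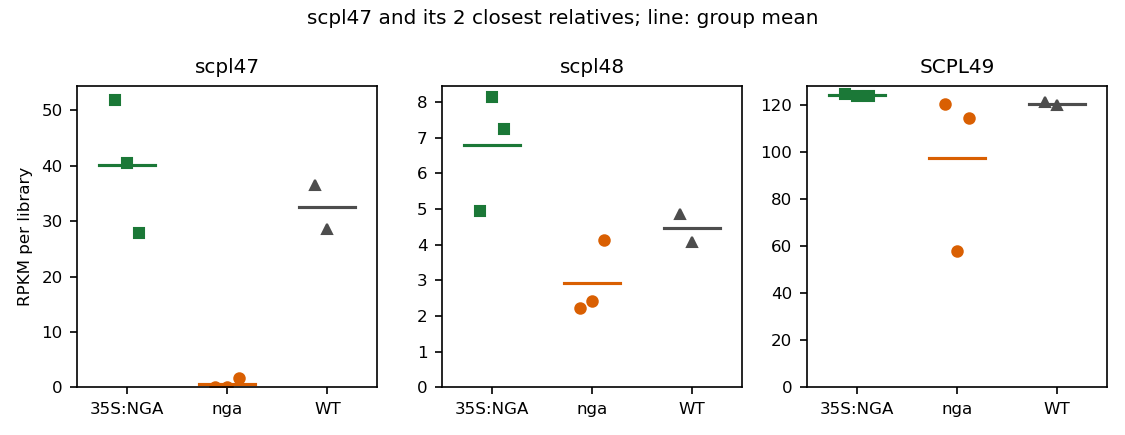
RPKM per library of scpl47, scpl48 and SCPL49, with 35S:NGA at the left, nga in the middle and WT at the right, points for libraries and lines for group means. The nga mean is 0.594 RPKM for scpl47, 2.93 RPKM for scpl48 and 97.5 RPKM for SCPL49, the last pulled down by the 57.9 RPKM of nga 2.

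Among the acyltransferase-like genes, a run of neighbours on chromosome 2 held most of the transcript. In genome order these are SCPL11, SCPL13, SNG1, scpl10 and SCPL9, all on the plus strand between 9774749 and 9802676. Their known functions lie in the making of sinapate esters, the ultraviolet-absorbing phenolics of the plant family Brassicaceae: SNG1 makes sinapoylmalate, scpl10 encodes the enzyme that adds sinapate to anthocyanins, and SCPL9 encodes one that joins sinapoylglucose units. For SCPL11 and SCPL13 no such role is given here.

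SCPL13 (AT2G22980, chromosome 2, 9778759 to 9783310) was highest in nga, lower in 35S:NGA and lowest in WT. It had 21.7, 15.5 and 19.6 RPKM in 35S:NGA, 68.6, 55.0 and 37.6 RPKM in nga and 8.57 and 7.36 RPKM in WT. No values overlapped between any of the groups. It fell by 1.43 ± 0.22 in 35S:NGA against nga (adjusted p = 0.0111), a call that held in 17 of 18 fits. In the exception, the fit with a lane term, which compares 35S:NGA 3 with nga 3 alone, SCPL13 differed by -0.90. Against WT, it differed in 35S:NGA by 1.15 ± 0.25, higher in 3 of 3 libraries but not past the threshold (adjusted p = 0.0904). It passed in the fit of those groups alone (adjusted p = 0.0426) and without nga 3 (adjusted p = 0.0381). The difference in nga against WT, 2.57 ± 0.25, was the largest above 0 on this scale of any tested member there.

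SNG1 lies next to SCPL13 and is identical to it in 81.7% of the bases of the shorter coding sequence. It had 38.3, 32.2 and 64.8 RPKM in 35S:NGA, 54.4, 83.1 and 58.9 RPKM in nga and 20.6 and 16.6 RPKM in WT. Its 35S:NGA and nga values overlapped, and both groups lay above WT. It rose by 1.75 ± 0.30 in nga against WT (adjusted p = 0.016), a call that was lost without WT 1 or WT 2 (adjusted p = 0.0803 and 0.17). It differed by 1.18 ± 0.30 in 35S:NGA against WT (adjusted p = 0.124) and by -0.57 ± 0.27 in 35S:NGA against nga (adjusted p = 0.235). SCPL11, the nearest relative of SCPL13 among its neighbours with 83.0% identity, lay the other way, at 12.6, 16.8 and 19.7 RPKM in 35S:NGA, 11.8, 10.4 and 15.5 RPKM in nga and 18.1 and 21.5 RPKM in WT, with all nga values below both WT values. Reads that match several of these genes could have been divided between them, since how the authors counted such reads is not given in the sources used here.

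The last genes of the run were low. For scpl10 there were 1.29, 2.41 and 6.65 RPKM in 35S:NGA, 1.66, 6.06 and 3.04 RPKM in nga and 2.37 and 3.01 RPKM in WT. Its higher values in 35S:NGA 3 and nga 2 stood in the libraries with the highest green tissue sums, whose part in them was not tested. SCPL9 was at 0.0861, 0.0409 and 0.171 RPKM in 35S:NGA, 0.346, 0.312 and 1.06 RPKM in nga and 0.642 and 0.738 RPKM in WT, so that it lay lowest in 35S:NGA, and it did not reach the filter for testing.

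**Figure D3:**
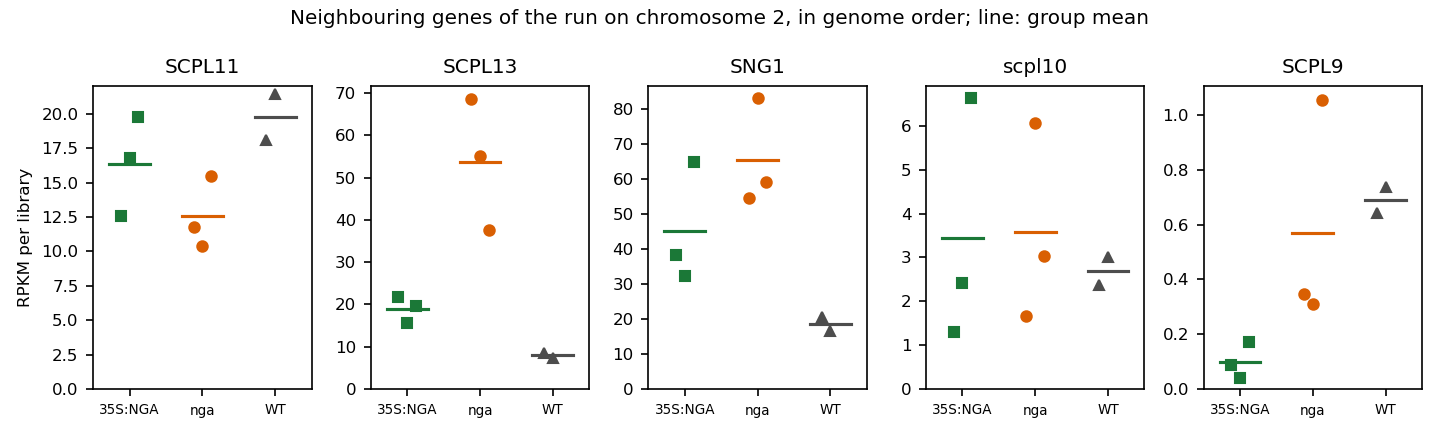
RPKM per library, each panel with its own axis from 0, of the 5 neighbouring genes on chromosome 2 in genome order, with 35S:NGA at the left, nga in the middle and WT at the right and lines for group means. SCPL13 and SNG1 are highest in nga, with means of 53.7 and 65.5 RPKM, whereas SCPL11 is highest in WT, with a mean of 19.8 RPKM.

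Elsewhere in the acyltransferase-like class, SCPL7 (AT3G10450) stood out in 35S:NGA. It had 2.97, 9.08 and 4.46 RPKM in 35S:NGA, 1.05, 1.21 and 1.72 RPKM in nga and 0.890 and 0.815 RPKM in WT. All 35S:NGA values lay above all others, with a spread that was wide. It rose by 1.38 ± 0.31 in 35S:NGA against nga (adjusted p = 0.0449), a call that held in only 4 of 17 fits and was lost without WT 1, WT 2, nga 1, nga 2, 35S:NGA 2 or 35S:NGA 3 (adjusted p between 0.0728 and 0.145) and with a lane term (adjusted p = 0.488). Against WT its adjusted p in 35S:NGA was 0.0866.

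In a run of 5 neighbours on chromosome 1, scpl4 was the sole gene with appreciable transcript, at 7.05, 5.92 and 6.44 RPKM in 35S:NGA, 6.70, 5.97 and 6.25 RPKM in nga and 5.26 and 5.96 RPKM in WT, and scpl2, scpl3, scpl5 and scpl6 were at 0 in most libraries. SCPL19, the sinapoylglucose:choline transferase known from seeds, did not exceed 0.112 RPKM, and scpl17, which is known to acylate glucosinolates in seeds, did not exceed 0.219 RPKM. The other untested genes of the class, SCPL12, scpl16, scpl14, SCPL15, scpl18 and scpl1, reached at most 1.03 RPKM, the value of SCPL12 in WT 2.

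The AG-type class, with 16 tested genes, held most of the abundant members. Its best known gene outside the rule, BRS1, was at 36.6, 35.8 and 22.5 RPKM in 35S:NGA, 25.4, 22.8 and 28.1 RPKM in nga and 32.8 and 28.8 RPKM in WT. The 35S:NGA values overlapped those of each other group, whereas all nga values lay below both WT values. BRS1 was not called in any comparison. The class summed to 515 to 604 RPKM in 35S:NGA, 371 to 490.5 RPKM in nga and 511 and 579 RPKM in WT. No role in carpels is given here for the genes that follow, which are ordered by their kinship.

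SCPL43 (AT2G12480), scpl42 (AT5G42240) and scpl41 (AT5G42230) are close relatives, the last pair adjacent on chromosome 5 and alike in 83.5% of coding bases, and they moved differently. SCPL43 had 116, 116 and 155 RPKM in 35S:NGA, 46.7, 46.6 and 76.0 RPKM in nga and 104 and 85.8 RPKM in WT. Its groups did not overlap in any comparison, and it rose by 1.20 ± 0.22 in 35S:NGA against nga (adjusted p = 0.0202). The call was lost without nga 1, nga 2, 35S:NGA 2 or 35S:NGA 3 (adjusted p between 0.0556 and 0.0832) and with a lane term (adjusted p = 0.0733). By contrast, scpl41 was at 31.9, 21.0 and 33.6 RPKM in 35S:NGA, 25.7, 31.3 and 36.4 RPKM in nga and 14.1 and 10.5 RPKM in WT, higher than WT in every 35S:NGA and nga library. Its difference in nga against WT was 1.27 ± 0.24. Its neighbour scpl42 had 46.9, 44.2 and 44.9 RPKM in 35S:NGA, 41.7, 52.1 and 45.0 RPKM in nga and 55.9 and 52.2 RPKM in WT, a much smaller span on the other side of WT.

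On the log2(RPKM + 1) scale, scpl35 (AT5G08260, chromosome 5, 2657054 to 2661437) had the largest difference below 0 in nga against WT after scpl47, whereas by the ratio of means scpl40 lay lower, at 0.220 of the WT mean against 0.335 for scpl35. It had 66.2, 80.8 and 67.0 RPKM in 35S:NGA, 41.5, 13.6 and 55.0 RPKM in nga and 114 and 105 RPKM in WT. The groups did not overlap in any comparison, with WT highest and nga lowest, and the lowest library was nga 2. Its difference was -1.76 ± 0.48 between nga and WT, and 1.14 ± 0.43 between 35S:NGA and nga (adjusted p = 0.154). Its closest relative in coding sequence, SCPL34, was at 11.7, 13.9 and 15.0 RPKM in 35S:NGA, 7.00, 6.79 and 11.9 RPKM in nga and 10.8 and 8.62 RPKM in WT, where nga and WT overlapped.

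Like scpl35, scpl46 (AT2G33530) was lower in nga in a manner that differed between libraries. It had 12.5, 11.2 and 10.9 RPKM in 35S:NGA, 5.51, 3.13 and 8.63 RPKM in nga and 13.9 and 11.7 RPKM in WT, a difference of -1.11 ± 0.30 in nga against WT. The nga values lay below all others, with nga 2 lowest and nga 3 highest. SCPL45, alike in 84.1% of coding bases, showed no such separation, with 37.2, 30.1 and 36.2 RPKM in 35S:NGA, 32.7, 20.4 and 36.4 RPKM in nga and 38.2 and 31.0 RPKM in WT.

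SCPL27 (AT3G07990) and scpl40 (AT3G63470) had lower levels in nga and similar or higher levels in 35S:NGA compared with WT. SCPL27 was at 9.81, 10.1 and 12.1 RPKM in 35S:NGA, 5.64, 5.32 and 3.52 RPKM in nga and 10.7 RPKM in both WT libraries. It rose by 1.02 ± 0.17 in 35S:NGA against nga (adjusted p = 0.0148), a call lost in 1 of 18 fits, without 35S:NGA 2 (adjusted p = 0.0563). At much lower levels, scpl40 had 2.56, 3.97 and 2.51 RPKM in 35S:NGA, 0.145, 0.306 and 0.681 RPKM in nga and 1.85 and 1.58 RPKM in WT, with no overlap between any groups. It rose by 1.54 ± 0.21 in 35S:NGA against nga (adjusted p = 0.00606), and it failed in 1 of 17 fits, that with a lane term (adjusted p = 0.206). In nga against WT the differences were -1.03 ± 0.19 for SCPL27 and -1.0 ± 0.23 for scpl40.

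A further gene, scpl31 (AT1G11080), was higher in both lines than in WT. It had 14.0, 7.22 and 10.4 RPKM in 35S:NGA, 10.6, 10.2 and 13.1 RPKM in nga and 2.87 and 1.67 RPKM in WT. Neither line overlapped WT, and the lines overlapped each other. Its difference in 35S:NGA against WT, 1.80 ± 0.27, missed the threshold narrowly (adjusted p = 0.0505) and passed in 5 of 18 fits. Without nga 2 the adjusted p was 0.041 and without nga 3 it was 0.0381, whereas over all 18 fits it reached 0.381. The difference in nga against WT was 1.93 ± 0.27.

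The pair scpl37 (AT3G52010) and scpl38 (AT2G05850) varied widely within 35S:NGA. For scpl37 there were 2.69, 7.20 and 13.7 RPKM in 35S:NGA, 8.15, 4.25 and 3.47 RPKM in nga and 1.27 and 2.91 RPKM in WT. For scpl38 the levels were 2.98, 8.05 and 18.7 RPKM in 35S:NGA, 8.65, 5.89 and 8.85 RPKM in nga and 1.29 and 2.60 RPKM in WT. The nga values of both genes lay above both WT values, whereas the 35S:NGA values overlapped those of WT for scpl37 and lay above them for scpl38. The highest library for both genes was 35S:NGA 3 and the lowest was WT 1. The summed level of 13 mature pollen markers was 63.5, 170 and 240.5 RPKM in 35S:NGA, 135, 76.3 and 82.5 RPKM in nga and 27.0 and 58.8 RPKM in WT, with the same highest and lowest libraries. Of those markers, 5 to 10 per library reached 1 RPKM and 1 to 3 were listed at 0, and VGD1, a pectin methylesterase of pollen tubes, was the most abundant, whereas the pollen genes AGP11 and TIP1;3 were at or near 0 in all libraries. The part of pollen in the levels of scpl37 and scpl38 was not tested. Neither gene was called in any comparison with the settings used throughout, and scpl38 passed in nga against WT in 5 of 18 fits.

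**Figure D4:**
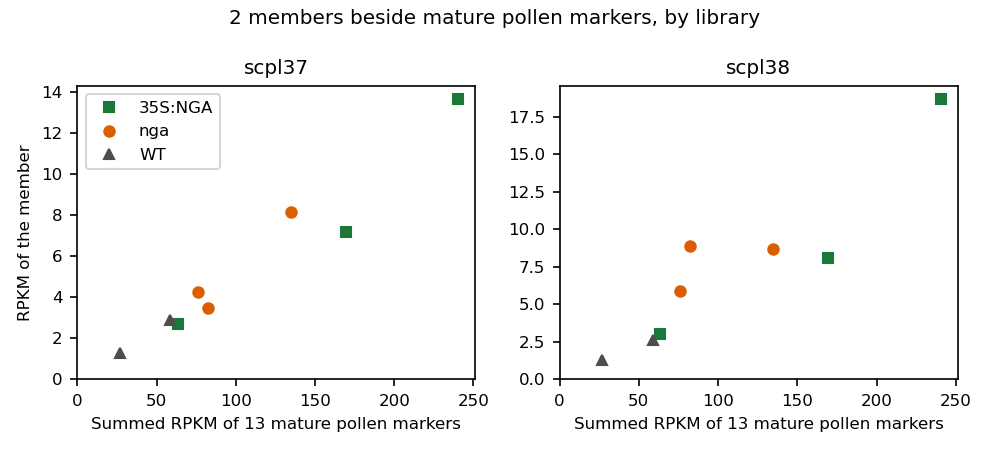
RPKM of scpl37 (left) and scpl38 (right) against the summed RPKM of 13 mature pollen markers, a point per library: squares for 35S:NGA, circles for nga and triangles for WT. In both panels 35S:NGA 3, with a marker sum of 240.5 RPKM, is the highest point and WT 1, with 27.0 RPKM, the lowest.

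Several abundant genes of the class did not pass the threshold in any comparison with the settings used throughout. Among them was scpl26, with 51.0, 42.4 and 57.7 RPKM in 35S:NGA, 47.8, 49.0 and 54.8 RPKM in nga and 54.2 and 48.8 RPKM in WT. Similarly, scpl25 had 93.5, 84.0 and 76.5 RPKM in 35S:NGA, 94.8, 84.8 and 85.7 RPKM in nga and 97.7 and 80.4 RPKM in WT. All groups overlapped for these 2 genes. For scpl29 there were 30.5, 26.8 and 40.4 RPKM in 35S:NGA, 32.9, 31.6 and 40.5 RPKM in nga and 47.6 RPKM in both WT libraries, so that both lines lay below WT, and scpl29 was called in 35S:NGA against WT only in the fit without the lane 8 libraries (-0.72, adjusted p = 0.0479). At lower levels, scpl50 had 7.23, 7.66 and 8.39 RPKM in 35S:NGA, 6.08, 5.54 and 10.2 RPKM in nga and 10.1 and 8.99 RPKM in WT. SCPL51, outside the classes, had 12.1, 10.7 and 10.8 RPKM in 35S:NGA, 14.9, 9.35 and 12.5 RPKM in nga and 13.2 and 15.7 RPKM in WT. The 9 untested genes of the AG-type class, among them scpl36, SCPL32 and scpl44, did not exceed 0.893 RPKM.

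The S28 genes are proline-directed peptidases by their kinship, and 3 of 6 were tested. AT5G65760 lay within a narrow range, at 33.9, 31.3 and 32.9 RPKM in 35S:NGA, 32.8, 32.3 and 33.6 RPKM in nga and 35.8 and 31.8 RPKM in WT. AT4G36195 had 36.0, 34.3 and 39.8 RPKM in 35S:NGA, 50.7, 47.3 and 43.9 RPKM in nga and 35.2 and 32.6 RPKM in WT. Its nga values lay above all others, and it differed by 0.47 ± 0.12 in nga against WT. Its neighbour AT4G36190 had 17.0, 18.7 and 18.4 RPKM in 35S:NGA, 20.4, 25.3 and 17.3 RPKM in nga and 14.9 and 14.6 RPKM in WT. These neighbours overlap in the annotation and share 92.1% of coding bases, so their reads may not be separable. EDA2, named for embryo sacs that arrest when it is disrupted, was at 0.0188 to 0.272 RPKM and was not tested, and AT3G28680 was above 0 in 35S:NGA 2 alone. In all, 15 of the 29 tested members overlap some other annotated locus, among them SCPL27, scpl40, scpl46, scpl48 and SCPL7, and the sources used here do not state whether strand was used in counting.

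Across the tested members, 7 of 29 were called in 35S:NGA against nga, against 5.34% of the 17786 genes tested. Of these, 6 rose (SCPL43, scpl47, SCPL27, scpl48, SCPL7 and scpl40), against 3.72% of all genes called higher, and SCPL13 fell, against 1.62% called lower. The place of scpl47 in this and the following counts comes from the nga values that chose the family and supports nothing. The median difference of the members was 0.12 beside 0.00 for all genes. Values of 35S:NGA lay wholly above nga in 9 members and wholly below in 2, against 13.6% and 12.8% of all genes. The count of calls was 4 without nga 1, nga 2 or 35S:NGA 3, 3 without 35S:NGA 2, 11 without nga 3 and 2 with the lane as a term, of which the one besides scpl47 was SCPL27.

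For 35S:NGA against WT, none of the 29 passed with limma, where 0.152% of all genes did (0.0843% higher, 0.0675% lower), and 8 had an unadjusted p under 0.05, 7 of them higher, against 20.4% of all genes and 12.0% higher. The median difference was 0.09 for members and 0.02 for all genes. The values did not overlap in 11 members that were higher and 6 that were lower, against 23.3% of all genes in each direction. In nga against WT, from which the family was chosen, 9 of 29 were past the threshold, against 16.9% of all genes, and nothing is read from this count. Higher were SCPL13, scpl31, scpl41 and AT4G36195, against 9.26% of all genes, and lower were scpl47, scpl35, scpl46, SCPL27 and scpl40, against 7.65%, with a median of -0.22 for members and 0.00 for all genes. Values of nga lay wholly above WT in 9 members and wholly below in 10, against 29.4% and 27.7% of all genes. The count of calls there was 2 without WT 1 or WT 2, 5 without nga 1 or nga 2, and 15 without nga 3, when 5128 genes in all were called instead of 3008. In 6 of those 9 members nga 3 was the nga library nearest to the WT mean, and 16 of the 29 tested members had their lowest nga value in nga 2. The same counts were not made over all genes, so they are not read as a trait of the family.

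**Figure D5:**
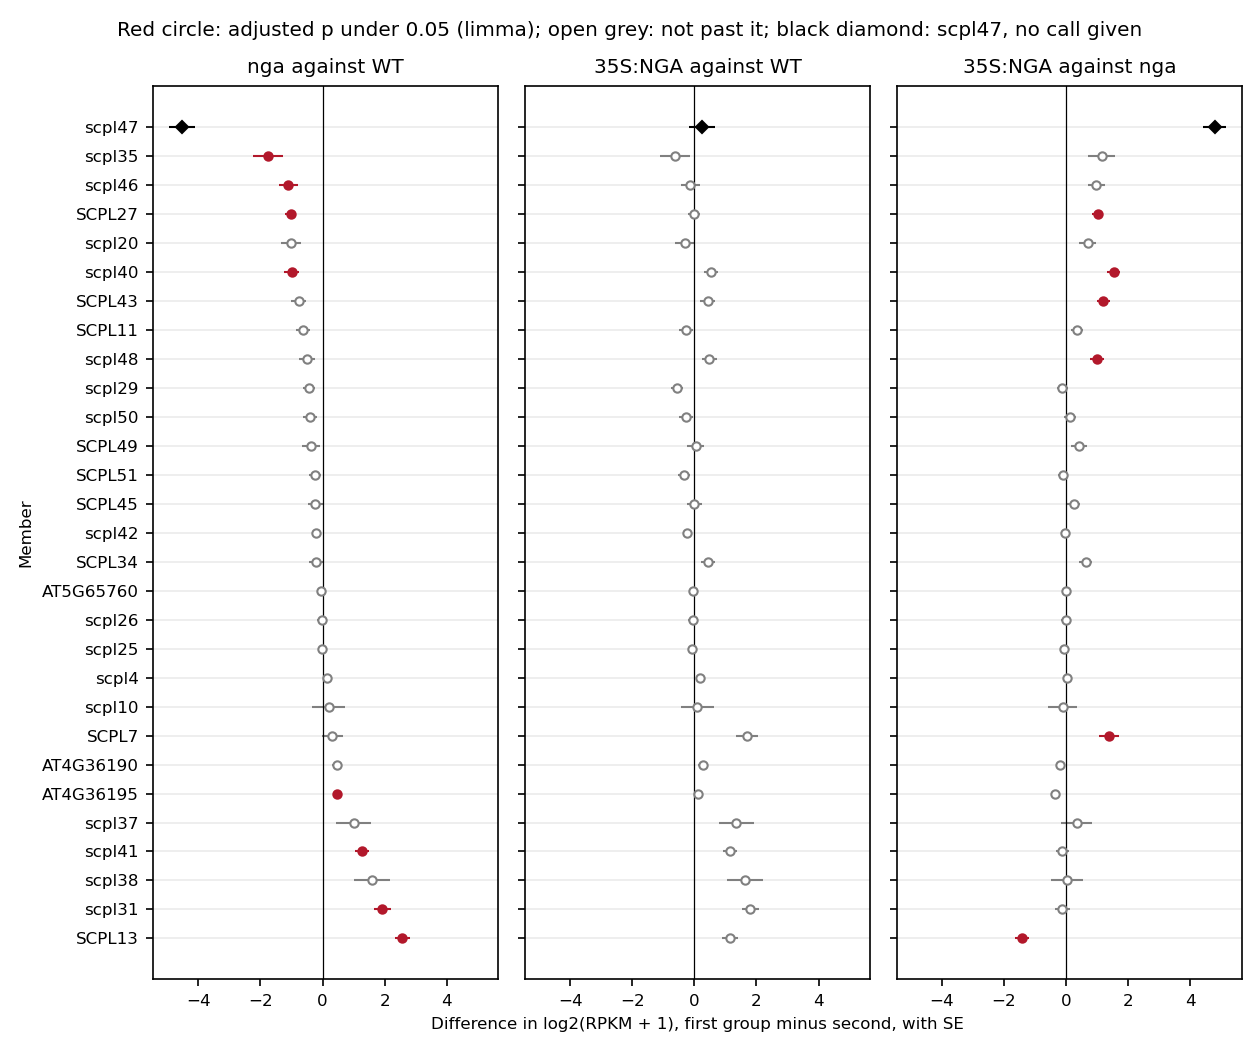
Differences in log2(RPKM + 1) with SE for the 29 tested members in nga against WT, 35S:NGA against WT and 35S:NGA against nga, as red circles where the adjusted p was under 0.05 and open grey circles elsewhere. The black diamond is scpl47, whose values chose the family, at -4.53, 0.26 and 4.79, and no red circle stands in 35S:NGA against WT.

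Genes of 3 lists were read beside the family, and nothing measured here ties them to the members. Of 18 genes of phenylpropanoid and sinapate ester synthesis, which supplies the donors of the acyltransferases, 16 were tested. In 35S:NGA against nga, 2 of the 16 rose and none fell, against 3.72% of all genes called higher and 1.62% called lower. 4CL2 rose by 1.24 ± 0.22 (limma, adjusted p = 0.018) and 4CL3 by 1.23 ± 0.29 (adjusted p = 0.0494), and both encode ligases that activate coumaric acid. The call of 4CL3 held in 5 of 18 fits, and that of 4CL2 was lost without nga 1, 35S:NGA 1 or 35S:NGA 2 (adjusted p between 0.0508 and 0.0568) and with a lane term (adjusted p = 0.343). In nga against WT, 1 gene rose and 1 fell, against 9.26% of all genes called higher and 7.65% called lower. REF1, a dehydrogenase that forms sinapic acid, rose by 0.73 ± 0.17 (limma, adjusted p = 0.03), and 4CL3 fell by 2.09 ± 0.32 (adjusted p = 0.0127). Both of these calls were lost without WT 1 or WT 2, and that of REF1 also without nga 1 or nga 2, with a highest adjusted p of 0.24. None was called in 35S:NGA against WT. UGT84A2, which makes the donor sinapoylglucose, had 9.40, 12.1 and 6.65 RPKM in 35S:NGA and 7.68, 7.16 and 9.17 RPKM in nga, and it was not called.

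Of 19 genes of brassinosteroid synthesis and signalling, the pathway tied to BRS1, 18 were tested. BEE1 and BEE3, transcription factors known as early responders to brassinosteroid, were the 2 genes that rose in 35S:NGA against nga. None fell, and of all genes 3.72% were called higher and 1.62% lower there. BEE1 had 23.8, 22.5 and 19.2 RPKM in 35S:NGA, 5.48, 4.11 and 3.61 RPKM in nga and 17.5 and 16.0 RPKM in WT, and rose by 2.09 ± 0.15 (adjusted p = 0.000414). BEE3 had 7.76, 7.12 and 5.02 RPKM in 35S:NGA, 1.14, 1.3 and 0.479 RPKM in nga and 4.75 and 3.06 RPKM in WT, and rose by 1.96 ± 0.24 (adjusted p = 0.00386). Both calls held in every fit in which the genes were tested. Set against WT, 3 genes fell in nga and 1, BEE2, rose, against 7.65% of all genes called lower and 9.26% called higher. BEE1 fell by 1.73 ± 0.17 (adjusted p = 0.00359), BEE3 fell by 1.32 ± 0.26 (adjusted p = 0.0217) and the synthesis enzyme BR6OX2 fell by 0.79 ± 0.20 (adjusted p = 0.0375). The call of BEE1 was lost without WT 1 (adjusted p = 0.0611), that of BEE3 without WT 1, WT 2 or nga 1, and those of BR6OX2 and BEE2 also without nga 2 or 35S:NGA 1. BR6OX2 also lost its call without 35S:NGA 2 and BEE2 without nga 3, and without WT 2 the adjusted p of BEE2 was 0.301. None was called in 35S:NGA against WT.

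Among 17 vacuolar proteases and sorting proteins 13 were tested. In nga against WT, 4 of the 13 rose and none fell, against 9.26% of all genes called higher and 7.65% called lower. The sorting receptor VSR1 rose by 0.85 ± 0.16 (adjusted p = 0.0194) and the cathepsin B-like proteases CATHB2 and CATHB3 rose by 0.78 ± 0.16 (adjusted p = 0.0236) and 0.70 ± 0.17 (adjusted p = 0.033), each of them higher in 3 of 3 nga libraries. Each of these calls was lost without WT 1, WT 2, nga 1 or nga 2, with a highest adjusted p of 0.243. GAMMA-VPE, a vacuolar processing enzyme, rose in 35S:NGA against nga by 0.88 ± 0.20 (adjusted p = 0.0414), a call that held in 7 of 18 fits and was lost without any 1 library other than nga 3 and with a lane term (adjusted p = 0.258), and none fell. Of all genes, 3.72% were called higher and 1.62% lower in 35S:NGA against nga. None of the 13 was called in 35S:NGA against WT.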

How the data were processed

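The authors deposited 1 file per library with RPKM for 33590 entries, written with decimal commas, per the file headers and values. Libraries were made with TruSeq kits and sequenced on a HiSeq2000, per the labels' protocols. FastQC and TAIR10 are named in the submitters' processing notes. The aligner and the read counter are not given here by any source used. Lanes were read from the file headers. Dropping 6374 entries that lack a gene model, which were all at 0, 18 entries for 9 repeated loci and 1 malformed entry left 27197 loci, and 55 of 55 members matched the RefSeq annotation of TAIR10.1, which gave coordinates and sequences. All 290 entries with TAIR10 intervals in the files overlap the TAIR10.1 gene of their locus, but 0 of these intervals lie wholly within that gene.

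The members and lists were chosen with earlier results of these data known. The fit used log2(RPKM + 1). It covered the 17786 genes that reached 1 RPKM in 2 or more libraries, in a limma model with a mean-variance trend, all 8 libraries and the 3 groups as terms, with Benjamini-Hochberg adjustment over all of them and a threshold of 0.05. The fit was tested on simulated data. Mapped reads were recovered from the spacing of low values, since a value is a whole number of reads divided by gene length and depth. Between 35.0% and 40.5% of low values in a library came out whole within 0.02 of a read over annotated exon lengths, against a median of 2.30% to 2.67% at other depths. The authors' gene lengths are not stated and differ from those of the annotation for many genes, so no count test was run. For scpl47 an exon length of 1689 bases was chosen because it makes the values of the 3 nga libraries whole within that tolerance. In the other 5 libraries, where scpl47 has far more reads, the values do not come out whole at this length.

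Described by library are scpl47, members whose mean in some group reached 5 RPKM, members called in any comparison, and genes with a known role. Up to 3 called genes by p are given from each list read beside the family. Alternatives were pseudocounts of 0.1 and 5, testing without a filter, a filter on a mean of 5 RPKM, quantile normalization, a fit of the compared groups, the replicate number as a block, the lane as a term, leaving out the lane 8 libraries and leaving out each library. The same alternatives for the genes of these lists and SNG1 were added after seeing the data. Replicates with the same number did not deviate together in every pair of groups, so the block is not the main fit. The tools were R 4.3.3, limma 3.58.1, Python 3.11.15, pandas 2.3.3, numpy 2.4.6, matplotlib 3.10.9, scipy 1.17.1 and Biopython 1.88.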

Additional observations from a re-analysis of the deposited data

How the results depend on the processing

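In nga against WT the count of called members was 9, and it was 16 when lane was a term, 16 when the lane 8 libraries were left out and 2 to 15 without each library in turn. In 35S:NGA against WT it was 0, and it was 1 with a pseudocount of 0.1, 1 with a filter at a mean of 5 RPKM, 2 in the fit of the compared groups, 1 without the lane 8 libraries and 0 to 2 without each library in turn. The members called there were scpl31, SCPL13 and scpl29. In 35S:NGA against nga it was 7, and it was 4 with a filter at a mean of 5 RPKM, 2 when lane was a term and 3 to 11 without each library in turn. Counts stayed within 1.5 times the main count with a pseudocount of 5, without a filter and with quantile normalization. Under the replicate block there were 0 calls in 35S:NGA against WT, 6 between 35S:NGA and nga, and 13 between nga and WT. Same-numbered libraries correlated in their deviations at 0.103, -0.154 and 0.239 between nga and 35S:NGA, at 0.352 and 0.367 between WT and 35S:NGA and at -0.260 and -0.0716 between WT and nga. Not every pair was above 0.1, so the number was not taken as a pairing. The deviations of WT 1 and WT 2 mirror each other, so this check cannot show whether same-numbered libraries were handled together.

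The 1 result that turned its direction was scpl47 in 35S:NGA against WT, at -1.52 with the lane as a term. That fit links these groups only through nga 3 and 35S:NGA 3. The scpl47 level was 1.65 RPKM in nga 3, against 0.0579 and 0.0775 RPKM in nga 1 and nga 2. Whether the lane itself had a part was not tested. The difference of scpl47 ranged from -6.47 to -2.75 in nga against WT and from 2.99 to 6.73 in 35S:NGA against nga, that of SCPL13 from 2.15 to 2.80 in nga against WT and from -1.69 to -0.90 in 35S:NGA against nga. With 2 WT libraries, a fit without either leaves a lone one, which is assumed to vary like the other groups. For scpl47 depth limits the nga values, at 3 and 5 reads in nga 1 and nga 2.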
